A study of Mus musculus with 3 samples.

Results

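The GIMAP GTPases (GTPases of the immunity-associated protein family) were examined in sorted endothelium of the E15.5 mouse kidney. The family was taken as every Gimap gene with a probe set whose platform annotation gives that symbol and no other, which was met by 8 genes (Gimap1, Gimap3, Gimap4, Gimap5, Gimap6, Gimap7, Gimap8 and Gimap9) of 19938 named genes. Each was read by 1 of the 35557 probe sets of the array, and no probe set with several symbols included a Gimap symbol. The RefSeq gene table holds the same 8 mouse Gimap genes.

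The cells came from CD-1 embryos at 15.5 dpc (Theiler stage 23) that carried the transgene Tg(TIE2GFP)287Sato, in which green fluorescent protein is driven by the promoter of Tek, the gene of the angiopoietin receptor Tie2. Kidneys were trypsinized, GFP-positive cells were taken by FACS, and RNA from pools of 4 to 5 kidneys was amplified once and put on Affymetrix Mouse Gene 1.0 ST arrays, with 1 array per pool. The 3 arrays form a single group without any treatment, so the questions were which members of the family were measured above background in the sorted cells and how far the 3 pools differed. The labels name the tissue as small vessels, and leave unsaid if different litters gave the pools, while the study describes its samples as independent biological ones. All p-values here speak to the variation among these arrays alone. The Tie2 promoter is also active in some blood-forming cells and macrophages, which limits the transgene as a marker of endothelium.

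GIMAP proteins are GTP-binding proteins that share a G domain of the AIG1 type, and are best known from lymphocytes, where they act in survival and homeostasis. Several members, Gimap1, Gimap3 and Gimap5 among them, are anchored in internal membranes by a hydrophobic tail, while Gimap4, Gimap6 and Gimap7 lack such an anchor. In mammals the genes lie side by side in a single cluster.

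The members that carry the results below were Gimap4 and Gimap6, which differed most between the arrays, and Gimap3 and Gimap7, which were below the level used here. Their promoters are therefore shown, as the 250 bases before the annotated start in the RefSeq sequence of assembly GRCm38.p6, 5′ to 3′ on the strand of the gene. Capitals mark the letters AGGAAG or their reverse complement, a common form of the sites bound by ETS factors, which are transcription factors of endothelial and blood cells.
Gimap4, chr6:48684328-48684577, plus strand: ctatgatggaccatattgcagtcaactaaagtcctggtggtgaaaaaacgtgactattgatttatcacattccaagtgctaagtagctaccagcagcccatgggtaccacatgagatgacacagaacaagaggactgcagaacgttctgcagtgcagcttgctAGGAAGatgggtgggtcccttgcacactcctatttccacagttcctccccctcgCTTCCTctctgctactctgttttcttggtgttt
Gimap6, chr6:48708245-48708494, minus strand: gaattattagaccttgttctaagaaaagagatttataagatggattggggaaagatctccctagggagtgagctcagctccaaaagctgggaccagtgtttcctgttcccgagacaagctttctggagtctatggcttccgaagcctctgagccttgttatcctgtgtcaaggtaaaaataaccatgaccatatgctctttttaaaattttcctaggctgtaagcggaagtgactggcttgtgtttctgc
Gimap3, chr6:48770852-48771101, minus strand: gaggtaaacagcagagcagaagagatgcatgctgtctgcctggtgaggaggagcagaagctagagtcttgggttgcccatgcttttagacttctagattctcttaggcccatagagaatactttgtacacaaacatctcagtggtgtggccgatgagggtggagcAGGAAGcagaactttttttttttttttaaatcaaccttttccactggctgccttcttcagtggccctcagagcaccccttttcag
Gimap7, chr6:48718371-48718620, plus strand: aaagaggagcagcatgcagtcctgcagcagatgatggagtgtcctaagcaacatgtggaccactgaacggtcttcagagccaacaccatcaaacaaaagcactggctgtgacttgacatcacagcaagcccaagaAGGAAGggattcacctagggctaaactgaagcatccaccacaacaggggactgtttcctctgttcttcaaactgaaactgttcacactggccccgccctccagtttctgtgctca

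The letters AGGAAG stood in the promoters of 7 of the 8 members, all but Gimap6, on either strand and counting both annotated starts of Gimap8. Other forms of ETS site, which share the letters GGAA, were not searched, and the Gimap6 promoter above holds GGAA with other bases around it. Counted by promoter, AGGAAG was matched in 7 of 9 Gimap promoters, with Gimap8 matched at 1 of its starts only. It was found in 29.5% of 32851 RefSeq mouse promoters of the same length. Gimap4 had 2 matches, beginning 87 and 33 bases before the start, and Gimap3 and Gimap7, whose probe sets were below the level, had 1 each. The RUNX core TGTGGT was matched in Gimap1, Gimap4 and Gimap7, against 14.0% of all promoters. The GATA letters AGATAA were matched in 0 of 9 Gimap promoters and in 9.99% of all. The forkhead letters GTAAACA were matched in Gimap3 alone among the members (3.17% of all promoters), and the TATA box letters TATAAA in Gimap6 alone (12.4%). No match in a Gimap promoter overlapped that of another motif. These matches describe letters in the sequence, and binding was not measured.

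**Figure D1:**
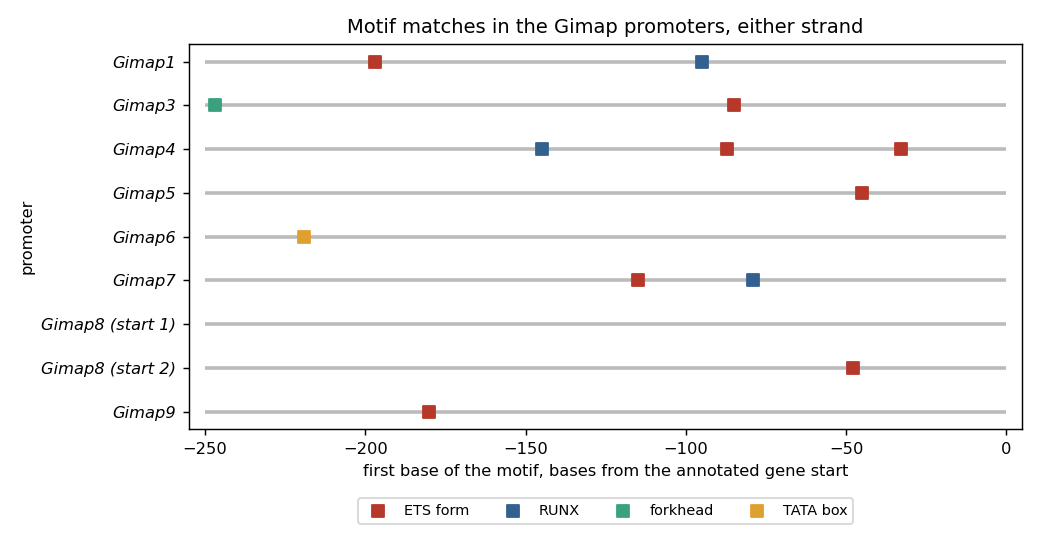
Matches to 4 of the 5 motifs in the 9 annotated Gimap promoters, by the position of the first base of the match relative to the annotated gene start (x axis, bases), with 1 line per promoter and either strand counted; the fifth motif, GATA, had 0 matches. Matches to the ETS form searched, AGGAAG, lie in 7 promoters, with 2 in Gimap4 and 0 in Gimap6.

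The question of whether each member was expressed was put against the level of the study's filter, 100 on the raw scale, which is 6.64 log2. The mean of every probe set was tested against that level with limma in one-sided tests for each direction. The p-values were adjusted over the whole table by the Benjamini-Hochberg method, and "above" and "below" refer to this test at an adjusted p of 0.05. The study's own filter was another rule, which kept probe sets with at least 100 in 3 samples. A gene over the level in every array can therefore pass neither test here if its values differ widely. Tek, whose promoter drives the transgene, was above the level, at 11.12, 10.97 and 10.13 log2 in arrays 1, 2 and 3. Of the 8 members, 6 were above the level and 2 below. Over all 19938 named genes 41.6% were above and 41.6% below, and over all probe sets 35.5% and 41.7%. Probe sets differ in affinity, so each gene was set against the level and across arrays, and not against another gene.

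Among the members with a membrane anchor, Gimap1 and Gimap5 were above the level and Gimap3 was below it. Gimap1, which mature T and B lymphocytes need for their survival, read 7.87, 7.87 and 7.78 log2 in arrays 1, 2 and 3. All 3 arrays were over the level, and the mean was 7.84 ± 0.05 (SD, n = 3; limma, adjusted p = 0.000572). Gimap5, a lysosomal member whose loss leads to lymphopenia and to changes of the liver endothelium, read 7.63, 7.63 and 7.33, with a mean of 7.53 ± 0.18 (SD, n = 3; limma, adjusted p = 0.0107). It was over the level in 3 of 3 arrays, but its call was lost when array 1 (limma, adjusted p = 0.0877) or array 2 (0.0901) was left out. Gimap3, a close relative of Gimap5 that in mice influences which mitochondrial DNA is kept in blood tissue, was listed at 4.28 in each of the 3 arrays. It was under the level in all of them (limma, adjusted p = 1.38e-05).

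Among the members without that anchor, Gimap4 and Gimap6 were above the level and Gimap7 was below it. Gimap4, which promotes the death of T lymphocytes, read 11.98, 11.53 and 10.97 log2, with a mean of 11.49 ± 0.50 that was 4.85 above the level (SD, n = 3; limma, adjusted p = 0.00304). Gimap6, which binds the autophagy protein Gabarapl2, read 11.10, 11.05 and 9.47. Arrays 1 and 2 lay close together and array 3 was lower, and the mean of 10.54 ± 0.93 was 3.90 above the level (SD, n = 3; limma, adjusted p = 0.0150). The Gimap6 call was lost without array 1 (limma, adjusted p = 0.105) or array 2 (0.110), and that of Gimap4 without array 2 (0.0518), while all 3 values of both genes were far over the level. Gimap7, which can stimulate the GTPase activity of Gimap4, was listed at 5.94 in each of the 3 arrays, 0.70 under the level (limma, adjusted p = 3.35e-05).

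The other two members were also above the level. Gimap8, the large member with several G domains, read 8.42, 8.34 and 8.06 log2, with a mean of 8.27 ± 0.19 (SD, n = 3; limma, adjusted p = 0.00387). Its call was lost without array 2 (limma, adjusted p = 0.0571). Gimap9 read 9.22, 9.22 and 9.04, with a mean of 9.16 ± 0.11 (SD, n = 3; limma, adjusted p = 0.000545). Without array 2 the calls of Gimap1 and Gimap9 alone were left among the 6 above the level, and without array 1 there were 4. Of all 19938 named genes 5051 were above without array 2 and 5531 without array 1.

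Gimap3 and Gimap7 had exactly equal values in all 3 arrays, as had 19.7% of probe sets, so their SD of 0.00 gives no measure of error. Their calls were therefore also made with 1 spread pooled over the probe sets that had 3 different values, an SD of 0.70 log2. A narrower one, pooled over all probe sets, had an SD of 0.49. By the wider spread Gimap3 was still below the level (adjusted p = 2.63e-08) and Gimap7 was not (adjusted p = 0.115), where 25.8% of all named genes were below. All 6 members above the level were above it by the wider spread as well, with adjusted p from 5.06e-32 for Gimap4 to 0.0496 for Gimap5, against 29.8% of all named genes.

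The Gimap genes lie beside each other on mouse chromosome 6 in the order Gimap8, Gimap9, Gimap4, Gimap6, Gimap7, Gimap1, Gimap5 and Gimap3, with 0 other measured genes between them. The 2 members below the level, Gimap7 and Gimap3, were thus not next to each other, and Gimap7 lay between Gimap6 and Gimap1, both above. The 5 nearest measured genes on the Gimap8 side were Rarres2, Gm5111, Repin1, Zfp775 and AI854703, of which 3 were above and 2 below. The 3 above had equal values in all arrays, and with the spread pooled over probe sets with 3 different values Repin1 alone of them was above, while Gm5111 alone was below. Rarres2, the gene of the secreted protein chemerin, was at 7.25 log2 in all 3 arrays. On the other side Tmem176b (9.71 ± 0.23) and Tmem176a (8.30 ± 0.03), a pair of related membrane protein genes, were above the level (SD, n = 3). Gm7932 passed neither test (7.30 ± 0.48), and Aoc1, a diamine oxidase, and Doxl1 were below.

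**Figure D2:**
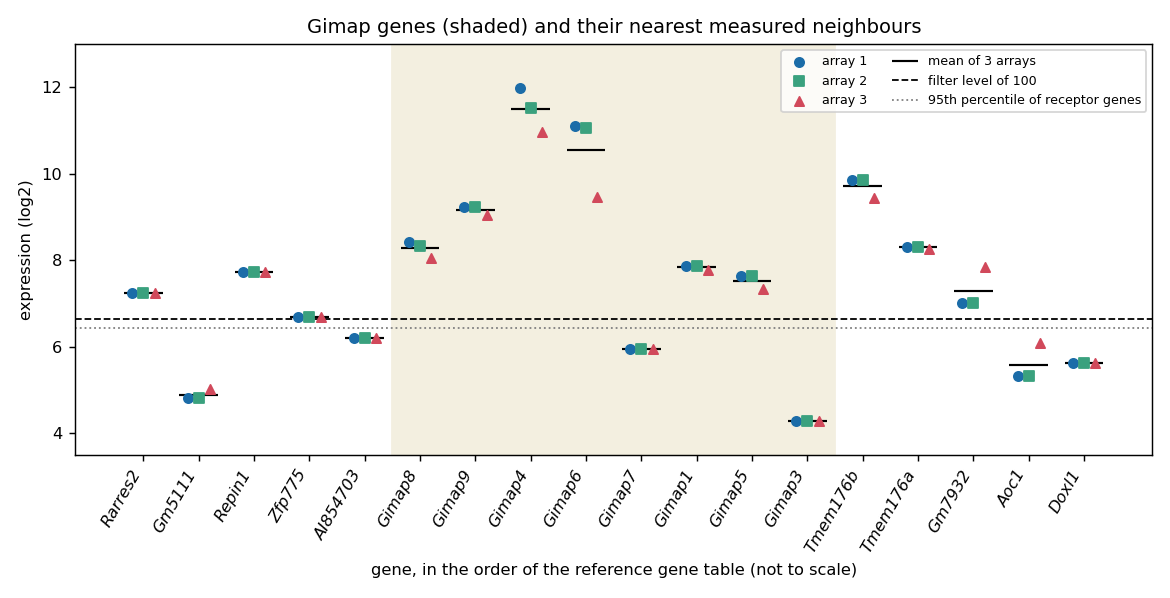
Log2 values (y axis) of the 8 Gimap genes, shaded, and of the 5 measured genes on each side, in the order of the RefSeq gene table and not to scale, with 1 symbol per array and a bar for the mean; the dashed line is the level of 100 (6.64 log2) and the dotted line the 95th percentile of receptor genes (6.42 log2). Array 3 lies under arrays 1 and 2 in the 6 Gimap genes above the level, while Gimap7 and Gimap3 lie under the dashed line in all 3 arrays; heights of different genes also carry the affinity of their probes.

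Because the family is known from lymphocytes, markers of the blood cell types that the gate could hold were read in the same arrays. Most lymphoid markers were below the level. Of 34 measured genes in 4 lymphoid lists 3 were above and 24 below. Of 13 T cell genes 2 were above and 9 below. Cd3d (4.63 ± 0.17 log2) and Cd3g (5.28 ± 0.31), parts of the T cell receptor complex, were below the level, while Cd3e (6.70 ± 0.14) and Cd247 (6.64 ± 0.00) passed neither test (SD, n = 3). The T cell genes above the level were the adaptor Lat (8.02 ± 0.27) and the transcription factor Bcl11b (6.90 ± 0.05), the latter not by either pooled spread. Of 9 B cell genes 0 were above and 6 below, with the B cell receptor part Cd79a at 4.65 in each array. With the spread pooled over all probe sets 2 were above, Ebf1 and Vpreb1, and 4 below, and with the wider one 0 and 3. Vpreb1 read 7.04, 7.77 and 7.29 log2 in arrays 1, 2 and 3, and Ebf1 8.11, 7.32 and 6.46. Of 9 genes of NK and innate lymphoid cells 1 was above, the perforin gene Prf1 at 7.02 in each array (0 above by either pooled spread), and 6 were below, among them the receptor gene Ncr1 at 5.12 ± 0.20. The 3 genes of lymphoid recombination, Rag1, Rag2 and Dntt, were all below. With the spread pooled over probe sets with 3 different values, 1 of the 34 lymphoid genes was above and 17 were below.

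Of 8 pan-leukocyte genes, Coro1a (7.03 ± 0.02 log2) alone was above the level and 4 were below, while by the wider of the pooled spreads 0 were above and 0 below. Ptprc, the gene of the leukocyte antigen CD45, read 5.96, 6.06 and 6.88 in arrays 1, 2 and 3 and passed neither test. Of 10 neutrophil and mast cell genes 0 were above and 8 below. Of 5 megakaryocyte and platelet genes 2 were above and 2 below (1 and 0 by that spread), with the platelet chemokine Pf4 at 9.27, 9.34 and 10.63. Of 9 erythroid genes 4 were above (2 by that spread) and 4 below.

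Macrophage genes were on neither side for the most part, and differed widely between the arrays. Of 15 measured, Cx3cr1 (7.94 ± 0.44 log2) was above the level, Itgam below, and 13 passed neither test, while with 1 spread pooled over all probe sets 8 were above. Csf1r, the receptor for macrophage growth factors, read 6.45, 6.98 and 7.41. The lysosomal glycoprotein gene Cd68, which passed neither test, read 7.30, 8.95 and 8.82 and was thus over the level in each array. Endothelial genes were nearly all above. Of 20 measured 17 were above and 0 below, and the other 3, Esam, Eng and Mmrn2, passed neither test. These 3 were nevertheless over the level in each array, with lowest values of 6.77, 7.26 and 6.99 log2. VE-cadherin Cdh5 was at 11.08 ± 0.59, Pecam1 at 10.09 ± 0.60 and the VEGF receptor Kdr at 9.89 ± 0.96 (SD, n = 3). By either pooled spread all 20 endothelial genes were above. Without a pooled spread the endothelial count depended on the number of arrays, with 6 above without array 1 and 3 without array 2. Of the other kidney cells, 5 of 10 nephron genes and 5 of 8 stromal and mural genes were above the level, several of them with equal values in all arrays. With the spread pooled over all probe sets these counts were 3 and 2, and with that over probe sets with 3 different values 1 and 2.

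**Figure D3:**
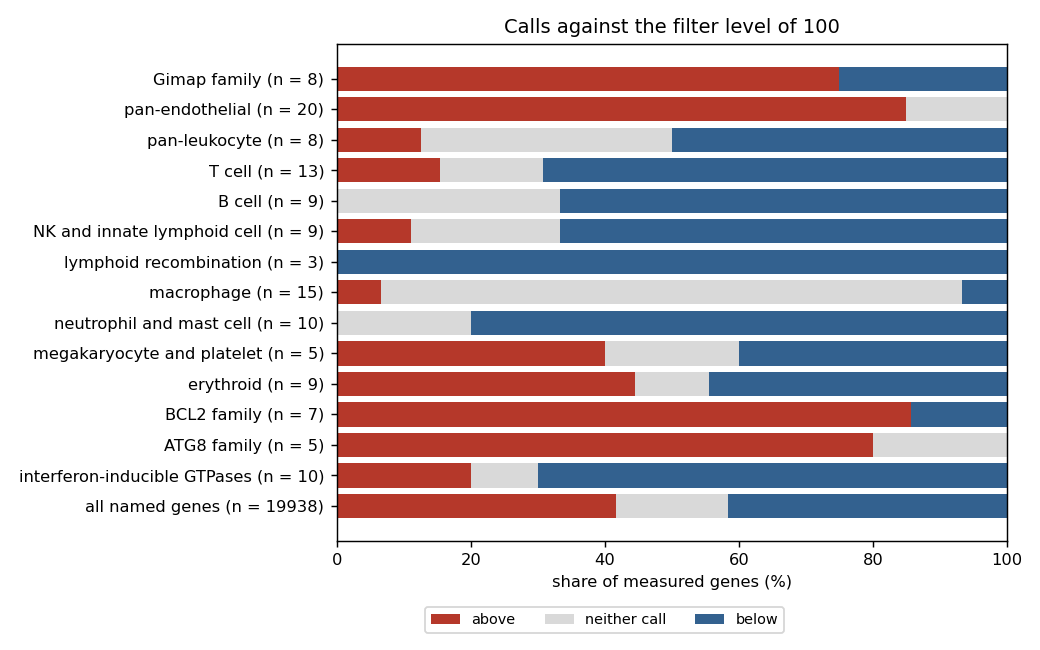
Share of measured genes in each group (x axis, percent) called above the level, below it or on neither side, with the number of measured genes in parentheses and all named genes as the last bar. The Gimap bar shows 6 of 8 above and 2 below, the pan-endothelial bar 17 of 20 above, the ATG8 bar 4 of 5 above and the T cell bar 9 of 13 below.

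Genes of proteins that GIMAPs are known to bind or to act with were read as well. Of 5 measured genes of the ATG8 family, the autophagy proteins that include the Gimap6 partner, 4 were above the level and 0 below. With the spread pooled over all probe sets 5 were above, and with that over probe sets with 3 different values 3. Gabarapl2 itself read 8.78, 9.23 and 8.59 log2 (8.87 ± 0.33), and Gabarap was at 10.71 ± 0.41, while Gabarapl1 (7.37 ± 0.58) passed neither test (SD, n = 3). Of 7 measured genes of the BCL2 family of cell death regulators 6 were above and 1, Bid, was below. By either pooled spread 4 of them were above and 0 below. Bcl2, which opposes cell death, was at 8.46 ± 0.22, Mcl1 at 9.48 in each array, and the death-promoting Bcl2l11 at 6.97 in each array (not above by either pooled spread). Of 10 interferon-inducible GTPases, another group of GTPases of immunity, 2 were above, Irgm1 (7.21 ± 0.22, not by either pooled spread) and Gbp9 (7.97 ± 0.03), and 7 were below, among them Gbp4 at 5.17 in each array. Gbp9, Bid, Itgam, Esam, Eng, Mmrn2, Ebf1 and Vpreb1 were named after their values were seen.

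The members above the level were lowest in array 3. This held for 6 of 6, where array 3 was lower than both other arrays in 48.8% of the 8295 named genes above the level. That share counts 2172 genes with equal values in all 3 arrays, which cannot be lowest in array 3, while 0 of the 6 members were so. In 1143 of the 8295 genes array 3 was the highest. With 1 array per pool the difference of an array could not be tested. Array 3 was 1.60 log2 lower than the mean of arrays 1 and 2 in Gimap6, or 3.04-fold, and a lower difference was found in 0.518% of genes above the level. In Gimap4 the value in array 3 was lower by 0.78 log2, or 1.72-fold, with a lower difference in 10.2% of those genes. The differences of the other four, from -0.32 log2 in Gimap8 to -0.09 in Gimap1, were smaller. Over all genes above the level the median difference was -0.05 log2.

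The values of array 3 had a narrower spread than those of arrays 1 and 2, with an SD over probe sets of 1.84 log2 against 2.08 and 2.06, and its olfactory and vomeronasal receptor genes, which should not be expressed, had a higher median of 5.08 against 4.67 and 4.71. After quantile normalization, which gives all arrays the same distribution, Gimap6 was still lower in array 3 by 1.27 log2, Gimap4 by 0.54 and Gimap5 by 0.12. The directions of Gimap1 (0.20), Gimap9 (0.24) and Gimap8 (0.03) turned, so that 3 of 6 members remained lowest in array 3. The median difference of all genes above the level was then 0.08 log2. With arrays centred on their medians, all 6 were lowest in array 3.

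Markers of the sorted cell type and of others also differed between the arrays, in both directions. All 20 pan-endothelial genes were lowest in array 3, by a median of 1.00 log2 (0.66 after quantile normalization). Kdr was lower by 1.61, Cdh5 by 0.97 and Tek by 0.91, and Cldn5 by 0.08, the latter named after its value was seen. After quantile normalization the direction of Cldn5 turned, to 0.24 higher in array 3. The summed linear level of the endothelial list was 27613, 24005 and 13735 in arrays 1, 2 and 3. That of the 6 Gimap members above the level was 7595, 6426 and 3886. As a share of the mean of arrays 1 and 2, array 3 had 0.53 of the endothelial and 0.55 of the Gimap sum. Over all named genes above the level this share was 0.83. All sums are of deposited values. The probe sets of Gimap4 and Gimap6 gave most of the Gimap sum, with means of 2880 and 1488 on the linear scale, against 185 to 572 for the others. The sum thus mainly follows these genes. Because probe sets differ in affinity, it does not rank the members by abundance. The median difference of the 6 members was -0.31 log2 (-0.04 after quantile normalization). Macrophage genes went the other way for the most part. Array 3 was the highest in 12 of 15 and higher than array 1 in 15 of 15. Over all 19938 named genes these counts were 7562 and 8058. The macrophage differences of array 3 from the mean of arrays 1 and 2 ran from -0.22 to 2.27. Their median was 0.70 (1.06 after quantile normalization), and the summed levels were 1502, 3428 and 5856. The pan-leukocyte sum was 567.5, 715.9 and 1222, but without the tetraspanin gene Cd53, which read 5.71, 7.37 and 9.20 log2, it was 515.2, 550.6 and 633.5, and the median difference of the list was 0.16 (0.13 after quantile normalization). The 13 T cell genes differed by a median of 0.11 (0.05 after quantile normalization), with sums of 935.0, 1019 and 1102, and 0 of them were lowest in array 3. The 9 NK and innate lymphoid genes had a median difference of 0.64 (0.36 after quantile normalization), with 7 of 9 highest in array 3 and sums of 439.2, 448.0 and 611.9. However, 6 of these 9 genes were below the level. Of the 1194 olfactory and vomeronasal receptor genes, 875 were highest in array 3, with a median difference of 0.30. The 34 lymphoid genes together had a median of 0.18 (0.07). The part of macrophages, of the endothelial share or of the narrower spread of array 3 in the Gimap differences was not tested. In such bulk samples fewer cells of a type and less RNA per cell cannot be told apart.

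**Figure D4:**
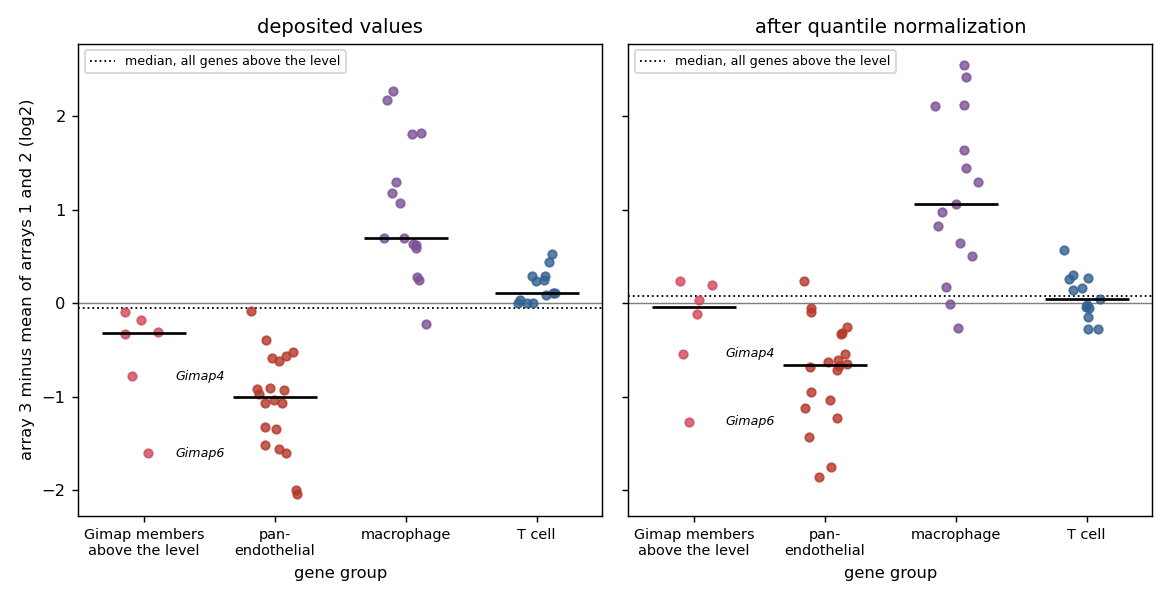
Array 3 minus the mean of arrays 1 and 2 (y axis, log2) for the 6 Gimap members above the level and for the pan-endothelial, macrophage and T cell genes, with deposited values on the left and quantile-normalized values on the right; each point is a gene, each bar the median of its group, and the dotted line the median of all genes above the level. Gimap6 and Gimap4 lie below 0 in both panels, at -1.60 and -0.78 on the left, within the range of the endothelial genes. The other members lie from -0.32 to -0.09 on the left, and Gimap1, Gimap8 and Gimap9 lie over 0 on the right. The macrophage median is 0.70 on the left and 1.06 on the right.

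The genes whose pattern was most like the mean pattern of the 6 members above the level were Farsb, Prxl2b, Fchsd2, Nbeal1 and Ppt1. The measure was the root mean square difference over the 3 arrays between the deviations of a gene from its own mean and the mean deviations of the 6 members, which were 0.23, 0.13 and -0.37 log2 in arrays 1, 2 and 3. It was 0.0030 log2 for Farsb, the gene of a phenylalanyl-tRNA synthetase subunit, which read 9.25, 9.14 and 8.65, and 0.0079 for Ppt1, the gene of a lysosomal thioesterase. Of 4084 genes with a mean of at least 100 and 3 different values, 221 were within 0.05. With 3 arrays this likeness is thus shared by many genes. The members themselves differed widely from their mean, with deviations from 0.03, 0.03 and -0.06 in Gimap1 to 0.56, 0.51 and -1.07 in Gimap6. Gimap1, Gimap5 and Gimap9 had only 2 different values, so the rule for the compared genes would have left them out.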

How the data were processed

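RNA from 3 pools of Tie2-GFP sorted cells was measured on 3 arrays, 1 group. The deposited table holds log2 values, which were analysed without further change. Per the labels, the submitters processed them with Affymetrix Expression Console (no version). The study names RMA for its own GeneSpring analysis. Whether the deposited table was made likewise is unstated, and the summarization determines how many values are exactly equal between arrays (55.9% of 35557 probe sets in at least 2 arrays). The number of arrays limits the precision.

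Names came from the annotation of the platform. Of 23410 probe sets listed, 21789 had 1 symbol, 1621 had several and were not used for naming, and 12147 others had no name here. Symbols were brought up to date by gene identifier with a RefSeq table of GRCm38.p6 (21698 matched). RefSeq lists Gimap5 as an older symbol of Gimap3, so the members were told apart by gene identifier. For a gene to be above the level, 1 of its probe sets had to be, and for it to be below, all of them, and its value was their mean. The array's genome build is not given, and the printed coordinates are those of the RefSeq promoter sequences, which held all 8 members.

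The level test used limma 3.58.1 in R 4.3.3 (lmFit with an intercept, eBayes) against 6.64 log2. It was tested on simulated data, where it rarely called probe sets lying at the level in normal data, but called too many of them when values were tied as by median polish, and fewer with the pooled spreads. Calls close to the level with tied values are therefore also given by a pooled spread. Other calculations used Python 3.11.15, numpy 2.4.6 and pandas 2.3.3. Pooled spreads replaced the SD of each probe set by 1 value, 0.49 log2 over all probe sets or 0.70 over those with 3 different values. Alternatives were other levels, normalizations and spreads, and leaving out arrays.

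The members and the 15 gene lists (20 pan-endothelial genes, 11 lists of other cells and 3 of GIMAP partners or other immune GTPases) were chosen with earlier results of these data known. Listed genes that no probe set of 1 symbol measured were not analysed here. The genes named were the members, Tek, the first 4 measured genes of a list, lymphoid and leukocyte genes above the level (up to 4 a list), the 5 measured neighbours on each side and the 5 genes of most similar pattern, and any other gene was chosen after its value was seen.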

Additional observations from a re-analysis of the deposited data

How the results depend on the processing

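The counts of 6 Gimap genes above and 2 below the level, which are also the counts of Gimap probe sets, were the same with an intensity trend in eBayes, with arrays centred or quantile normalized, with single-symbol probe sets alone, with the level at the 95th percentile of receptor genes (6.42 log2) and with 1 spread pooled over all probe sets. With a level of 200 there were 3 above and 2 below, the mean of Gimap5 lay under the level (-0.12 log2), and Gimap6 (adjusted p = 0.0545) and Gimap8 (0.0501) were not above. Of all 19938 named genes 3221 were then above and 13280 below. With a level of 50 there were 7 above and 1 below, and Gimap7 lay over the level (0.30 log2). Of all named genes 14235 were above that level and 2613 below. With the spread pooled over probe sets with 3 different values, chosen after seeing the data, 1 was below. Leaving out an array gave 2 to 4 members above and 2 below with eBayes. Over all 19938 named genes the counts were 5531 above and 5338 below without array 1, and 5051 and 5163 without array 2. No eBayes run was made without array 3, where 50.6% of probe sets are equal in arrays 1 and 2. With a pooled spread, also chosen after seeing the data, leaving out each array in turn gave 5 to 6 above and 1 to 2 below, where Gimap5 was lost without array 1 (adjusted p = 0.0550) or array 2 (0.0646) and Gimap7 likewise (0.101 and 0.113). In these pooled runs 5835 to 7859 of all named genes were above and 5014 to 7435 below. Runs with an array left out rest on fewer arrays, and otherwise the cause was not tested.

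The pan-endothelial count above the level, 17, was 20 by either pooled spread on all 3 arrays and 18 after quantile normalization. It was 20 at a level of 50 and 10 at a level of 200. With an array left out it was 3 to 6 by eBayes or 20 by a pooled spread. For the lymphoid lists together, 3 above became 1 with the spread pooled over probe sets with 3 different values, 13 at a level of 50, 0 at 200, 6 at the receptor level and 1 to 2 by eBayes or 1 to 3 by a pooled spread with an array left out, and 24 below became 9 at a level of 50 and, with an array left out, 12 by eBayes or 17 to 23 by a pooled spread. For macrophage genes, 1 above became 8 with the spread pooled over all probe sets, 7 over those with 3 different values, 10 at a level of 50, 0 at 200, 2 at the receptor level, 2 with arrays centred, 2 quantile normalized, and 0 to 1 by eBayes or 7 to 8 by a pooled spread with an array left out, and 1 below became 2 with the spread pooled over all probe sets, 5 at 200, and 1 to 2 by eBayes or 1 to 3 by a pooled spread with an array left out. No paired analysis was possible because the series holds a single group.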
